A study of Canis lupus familiaris with 13 samples.

Results

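ACTA1, the gene of skeletal muscle alpha-actin, was 1 of 6540 genes with a symbol on a dog expression array, and its symbol was given to 4 of the 23836 gene probe sets. The probe sets are 1583200_s_at, 1583482_s_at, 1603467_at and 1605145_at, and all 4 passed the filter on low signal, as did 14302 probe sets in all. The gene was chosen on the signals of these probe sets in the 4 groups, because they had been seen to disagree. Their levels and group differences are therefore given as a description, with no p-value. Total RNA came from 13 samples of dog heart tissue, each under its own name, with 1 array each: 3 control mongrels (P1, P4 and P9), 3 Dobermans (K, L and R) and 4 Boxers (1 to 4) with dilated cardiomyopathy, and 3 paced mongrels (LV01, LV02 and LV04). In dilated cardiomyopathy the ventricles enlarge and contract poorly, and pacing drives the heart through an electrode. The labels gave no age, no sex and no pacing rate or length. No healthy Doberman or Boxer was among the samples, so breed and disease cannot be told apart in the comparisons of a breed with the controls.

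Actin is the protein of the thin filament, on which myosin pulls. The heart muscle of adult mammals expresses mainly the cardiac isoform ACTC1, and ACTA1 is the main isoform of skeletal muscle. In rodents, ACTA1 messenger RNA is known to rise in the ventricle under pressure load, as part of a return to genes of the fetal heart. The sarcomeric actins are nearly identical in protein, so probes within their coding sequence can bind more than 1 of them. On Affymetrix arrays the ending _s_at marks a probe set whose probes match several transcripts, _x_at one with some probes that can cross-hybridise, and _at one designed for a single transcript. The sources used here gave neither the probe sequences nor the transcripts that each probe set matches. A signal of either _s_at probe set therefore cannot be assigned to ACTA1 alone. Whether 1603467_at and 1605145_at match ACTA1 transcripts could not be checked either, so their link to the gene rests on the array annotation. The log2 values of these _at probe sets correlated with Pearson's r = 0.06 over the 13 arrays.

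The RNA of the Dobermans was uneven. Degraded RNA raises the GAPDH ratio, the signal of the 3' control probe set over that of the 5' one. K had a ratio of 1.08, L of 2.10 and R of 3.62, and the other 10 arrays ranged from 0.967 to 1.09. The same ratio of the actin control probe sets was 0.111 to 0.198 in the controls and 0.169 to 0.218 in the paced samples. It was 0.255 to 0.340 in the Boxers, 0.268 in K, 0.265 in L and 0.943 in R, so every diseased array lay above every control and paced array. All 3 Dobermans correlated less with their own group (mean r 0.866 to 0.886) than the other 10 arrays did with theirs (0.950 to 0.965). Values without L and R rest on K alone, which the fit assumes to vary like the other groups. The median signal of an array was 207 to 219 in the paced samples and 142 to 146 in the controls. All 13 cardiomyocyte marker genes found on the array passed the filter in this tissue, labelled as heart, with a mean log2 signal between 13.65 and 14.60 on every array. The labels did not name the chamber, apart from the letters LV in the names of the paced samples alone, which they did not explain. In bulk tissue such as this, fewer cells of a type and less RNA per cell cannot be told apart.

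The probe sets 1583200_s_at and 1583482_s_at were high in the paced hearts and moved together. For 1583200_s_at the MAS5 signal was 6501 in LV01, 6465 in LV02 and 7277 in LV04. The controls read 555 in P1, 520 in P4 and 1012 in P9. Doberman K stood at 391, L at 964 and R at 1016, and Boxers 1 to 4 at 1241.5, 871, 1063 and 1017. The lowest paced array lay 5.21 times above the highest of the other 10, and the 3 remaining groups overlapped one another. The paced mean of 6748 ± 459 (SD, n = 3) and the control mean of 696 ± 274 (SD, n = 3) gave a 9.93-fold difference with a log2 change of 3.31 ± 0.33 (SE). Median centring of the arrays lowered this change to 2.80.

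The same order of groups appeared in 1583482_s_at. Its signal was 5390 in LV01, 5372 in LV02 and 6353 in LV04, against 645 in P1, 656 in P4 and 1025 in P9. The Dobermans read 320.5 in K, 1245 in L and 1021 in R, and Boxers 1 to 4 read 1345, 1034.5, 1255.5 and 1125. The paced arrays again stood apart, the lowest of them 3.99 times above the highest other array. The paced mean was 5705 ± 561 (SD, n = 3) and the control mean 775 ± 216 (SD, n = 3), a 7.38-fold difference (log2 change 2.88 ± 0.37, SE). Every Boxer lay above every control on this probe set, by a narrow margin (1034.5 against 1025), and the log2 change was 0.63 ± 0.35. On 1583200_s_at, where the change was 0.63 ± 0.31, the Boxers overlapped control P9.

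**Figure D1:**
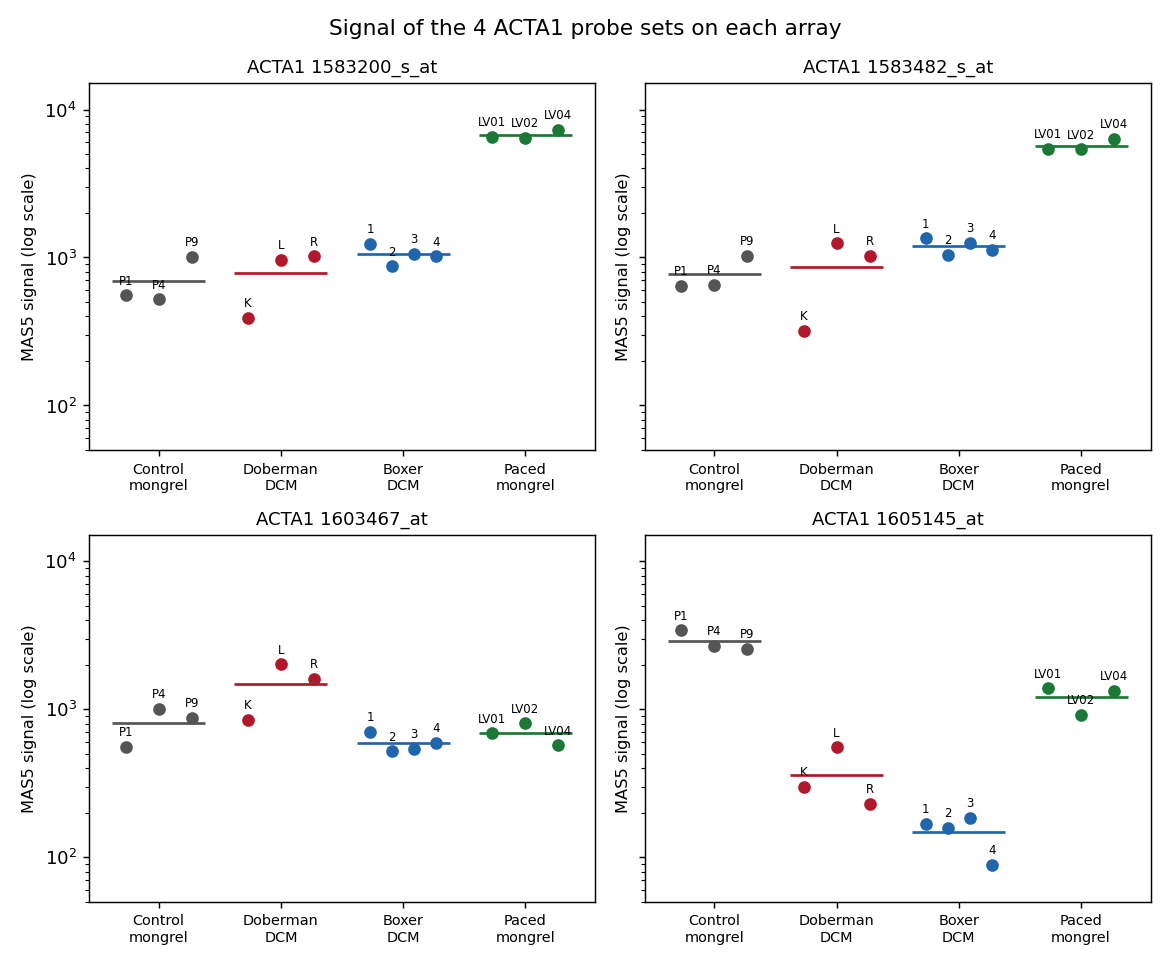
MAS5 signal (log axis) of the 4 ACTA1 probe sets on each of the 13 arrays, by group; points are arrays with their sample names and bars are group means. The paced arrays lie at 5372 to 7277 on both _s_at probe sets and above all others, whereas 1605145_at is highest in the controls, then in the paced samples, the Dobermans and the Boxers.

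Within the Dobermans both _s_at probe sets split the same way. K was the lowest of all 13 arrays on each, while L and R lay near or above the highest control. The log2 change from the controls was 0.13 ± 0.33 (SE) for 1583200_s_at and -0.02 ± 0.37 for 1583482_s_at with all 3 Dobermans. In a fit that kept K and left out L and R it was -0.74 and -1.20, and without K it was 0.56 on both, so the sign depended on the sample. L and R are also the arrays with GAPDH ratios of 2.10 and 3.62, and the part of RNA quality in this split was not tested. The sign for 1583200_s_at also turned with median centring (-0.31). Over the 10 arrays other than the paced ones, which stand apart, the log2 values of both probe sets correlated with Pearson's r = 0.96 and Spearman's rho = 0.84. With the 2 arrays farthest from the median left out, r was 0.93 over 8 arrays. These are descriptions of probe sets that can share probes.

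The probe set 1605145_at behaved in another way and separated all 4 groups. Its signal was 3410 in control P1, 2680 in P4 and 2558 in P9. The paced samples read 1382 in LV01, 910 in LV02 and 1334 in LV04. Doberman K was at 299, L at 552 and R at 230, and Boxers 1 to 4 at 167, 157, 183 and 88.6. No 2 groups overlapped: the lowest control lay 1.85 times above the highest paced array, the lowest paced array 1.65 times above the highest Doberman, and the lowest Doberman 1.26 times above the highest Boxer. The controls averaged 2883 ± 461 (SD, n = 3), the paced samples 1209 ± 260 (n = 3), the Dobermans 360 ± 169 (n = 3) and the Boxers 149 ± 41.7 (n = 4).

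Against the controls, 1605145_at was 17.9-fold lower in the Boxers (log2 change -4.16 ± 0.30, SE) and 8.15-fold lower in the Dobermans (-3.03 ± 0.32). The Doberman difference was -3.19 with L and R left out, in a fit where K, with a GAPDH ratio of 1.08, is the 1 Doberman. Every Boxer and Doberman had a higher actin 3' to 5' ratio than every control, and the part of RNA quality in these differences was not tested. In the Boxers, whose signals came near the filter level of 108, the size depended on the pseudocount, with -4.30 at a pseudocount of 1 and -3.80 at 64. The paced samples were 2.39-fold lower than the controls (-1.26 ± 0.32). With 1 sample left out it lay between -1.36 and -1.07. Between the breeds the Dobermans were 1.14 ± 0.30 higher on the log2 scale, and 0.80 higher without Doberman L. The controls and the paced samples were both mongrels, so in that comparison breed did not go with treatment.

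The remaining probe set, 1603467_at, differed little among the mongrels and the Boxers. It read 556 in P1, 1009 in P4 and 873 in P9, and 686 in LV01, 801 in LV02 and 569 in LV04. Boxers 1 to 4 were at 702, 519, 537 and 594. Doberman K, at 844, lay within the controls, while L reached 2009 and R 1609, above every other array. The 3 groups other than the Dobermans overlapped. The Doberman mean was 1487 ± 592 (SD, n = 3), the control mean 813 ± 233 (n = 3), the paced mean 686 ± 116 (n = 3) and the Boxer mean 588 ± 82.4 (n = 4). The log2 changes from the controls were 0.81 ± 0.30 (SE) in the Dobermans, -0.42 ± 0.28 in the Boxers and -0.21 ± 0.30 in the paced samples. The Doberman value was 0.095 with L and R left out and 1.17 without K. The high signals were those of the 2 arrays with raised GAPDH ratios, and the part of RNA quality was not tested. The Dobermans were 1.24 ± 0.28 above the Boxers, and 0.52 with L and R left out.

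The 4 probe sets annotated to ACTA1 thus gave opposite signs in the same comparison. In the fit across all probe sets (limma, Benjamini-Hochberg adjusted p under 0.05), 3 of the 4 passed between paced and control samples, 2 higher and 1 lower, where 12.2% of the 14302 tested probe sets passed. Between Boxers and controls 1 passed, lower, against 0.042% of all, and between Dobermans and controls 1 passed, lower, against 25.5%. Between Dobermans and Boxers 2 passed, both higher in the Dobermans, against 35.4%. The count for the paced samples lost 1605145_at without P1, P4, LV02 or LV04. The count between the breeds lost 1603467_at with the GAPDH ratio as a covariate or without L and R, and 1605145_at in 7 of 22 alternative settings. These contrasts chose the gene, so nothing is read from the counts. The widest gap between ACTA1 probe sets was 4.80 on the log2 scale for the Boxers, 4.57 for the paced samples and 3.84 for the Dobermans, each against the controls. Among the 160 genes with at least 4 tested probe sets the median gap was 0.62, 1.17 and 1.60. ACTA1 had the widest gap of the 160 for the Boxers, where the next was 2.25, while 1 gene had a wider one for the paced samples and 4 for the Dobermans. Between the breeds its gap was 1.89, near the median of 1.54, and 44 genes had a wider one. Genes with more probe sets have more room for a wide gap, and the ranking uses the values that chose ACTA1.

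**Figure D2:**
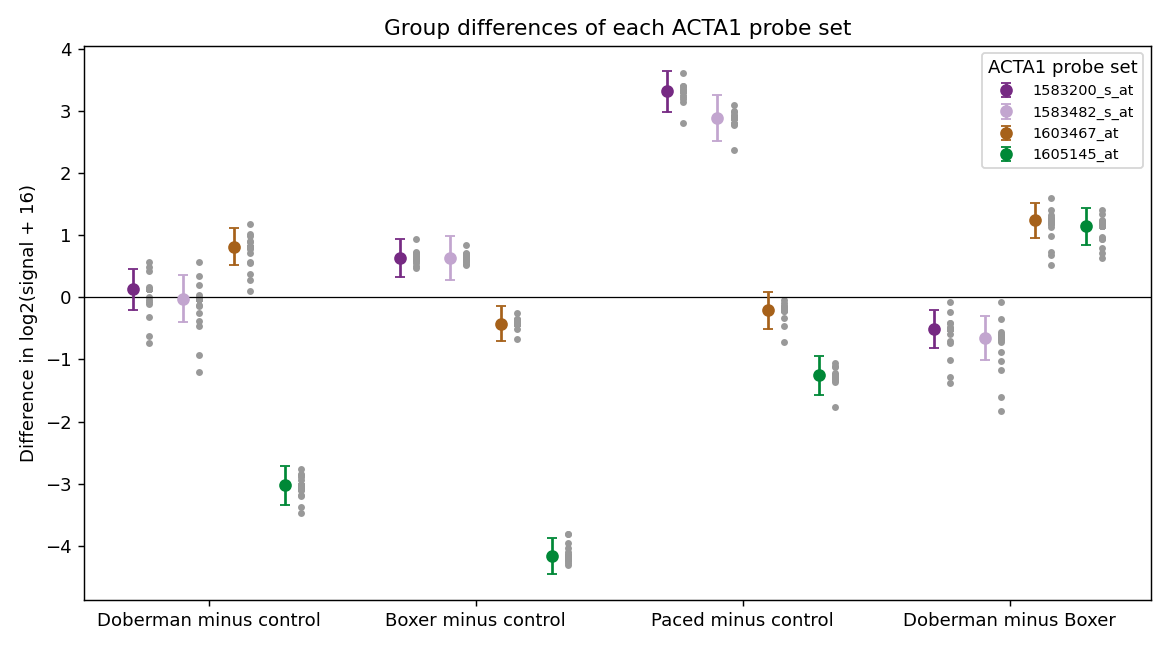
Difference in log2(signal + 16) between groups for each ACTA1 probe set in the 4 comparisons; coloured points are the values with all samples and bars their SE, and grey points are the values under the 22 alternative settings. Both _s_at probe sets stand at 3.31 and 2.88 for the paced samples, and 1605145_at at -4.16 and -3.03 for the Boxers and Dobermans.

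**Figure D3:**
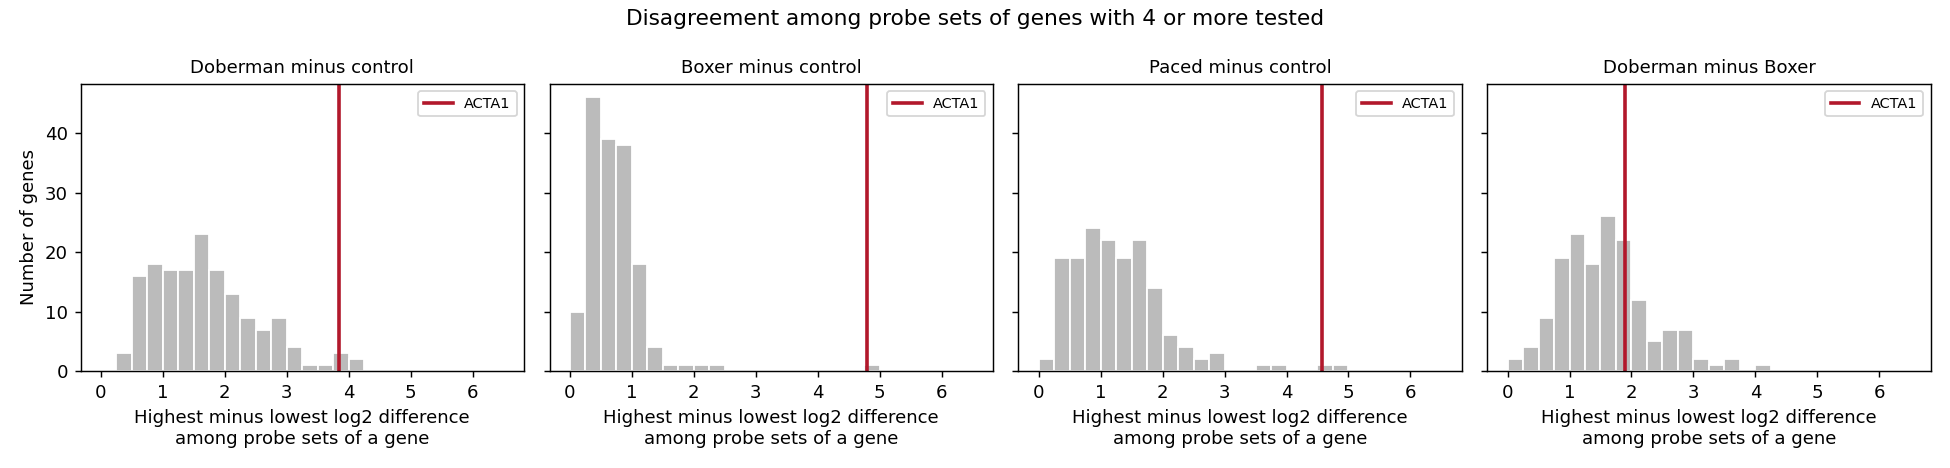
Number of genes by the gap between the highest and lowest log2 difference among their probe sets, for the 160 genes with at least 4 tested, in the 4 comparisons. The red line marks ACTA1, at 3.84 for the Dobermans, 4.80 for the Boxers and 4.57 for the paced samples against the controls, and at 1.89 between the breeds.

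No other actin gene passed against the controls by its brightest probe set. The 5 other genes had 8 tested probe sets: ACTC1, the cardiac alpha-actin, and ACTA2, the vascular smooth muscle actin, with 1 each, and ACTG2, the enteric smooth muscle actin, ACTB and ACTG1, the cytoplasmic actins, with 2 each. For ACTC1 the control mean was 21036 ± 3474 (SD, n = 3), the Doberman mean 29213 ± 10335 (n = 3), the Boxer mean 19107 ± 1152 (n = 4) and the paced mean 16723 ± 1304 (n = 3). Its log2 change was -0.32 ± 0.23 (SE) in the paced samples (limma adjusted p = 0.381), 0.43 ± 0.23 in the Dobermans (adjusted p = 0.166) and -0.13 ± 0.21 in the Boxers (adjusted p = 0.956). By 1 probe set per gene, 11.9% of all genes rose and 14.1% fell in the Dobermans. These shares were 0.0191% and 0.0382% in the Boxers and 5.19% and 4.04% in the paced samples. Of the 5 other actin genes, 0 passed in limma against the controls in any group. In the Dobermans 1 of them had an unadjusted p under 0.05, ACTB at -0.48 ± 0.22 (adjusted p = 0.113), while its other tested probe set stood at 0.55 ± 0.25 (adjusted p = 0.107). In the Boxers and the paced samples 0 did. ACTG1 stood at -0.41 ± 0.43, 0.22 ± 0.40 and -0.25 ± 0.43 in the Dobermans, the Boxers and the paced samples.

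Of the 3 probe sets that do not represent their gene, 1599410_s_at of ACTG2 fell in the paced samples by 1.70 ± 0.45 on the log2 scale (limma adjusted p = 0.0277). Its signal was 247 ± 91.7 (SD, n = 3) there and 821 ± 251 (SD, n = 3) in the controls. This call was lost without P1 (-1.48), P4 (-1.67), LV01 (-1.82) or LV04 (-1.37). The other tested ACTG2 probe set stood at -0.53 ± 0.39 (adjusted p = 0.390). Further probe sets of ACTG2 and ACTB lay below the filter and were not tested. Of these, ACTG2 1595459_at read 266 to 394 in the paced samples and at most 180.5 (Doberman L) elsewhere. ACTB 1582871_at read 178 to 277 in the paced samples and at most 105 (P1) elsewhere. Paced and control ranges overlapped for ACTG2 1599638_at (16.5 to 39.9 against 22.1 to 119) and ACTB 1603282_at (10.5 to 34.9 against 9.5 to 19.1). For ACTA2, which mural cells of vessels express, the change was -0.52 ± 0.28 in the paced samples, 0.52 ± 0.28 in the Dobermans and 0.43 ± 0.26 in the Boxers, and none passed. The array also carries control probe sets for an actin that the sources do not name further. Their 3' member had a control mean of 3991 ± 784 (SD, n = 3), a Doberman mean of 7253 ± 2787 (n = 3), a Boxer mean of 6530 ± 1141 (n = 4) and a paced mean of 3790 ± 409 (n = 3). The 5' member read 26351 ± 4828, 17898 ± 6505, 22412 ± 1244 and 20152 ± 698 in these 4 groups in turn. The member from the middle of the transcript read 2705 ± 215, 2945 ± 910, 3151 ± 310 and 2938 ± 18.5 in the same groups.

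**Figure D4:**
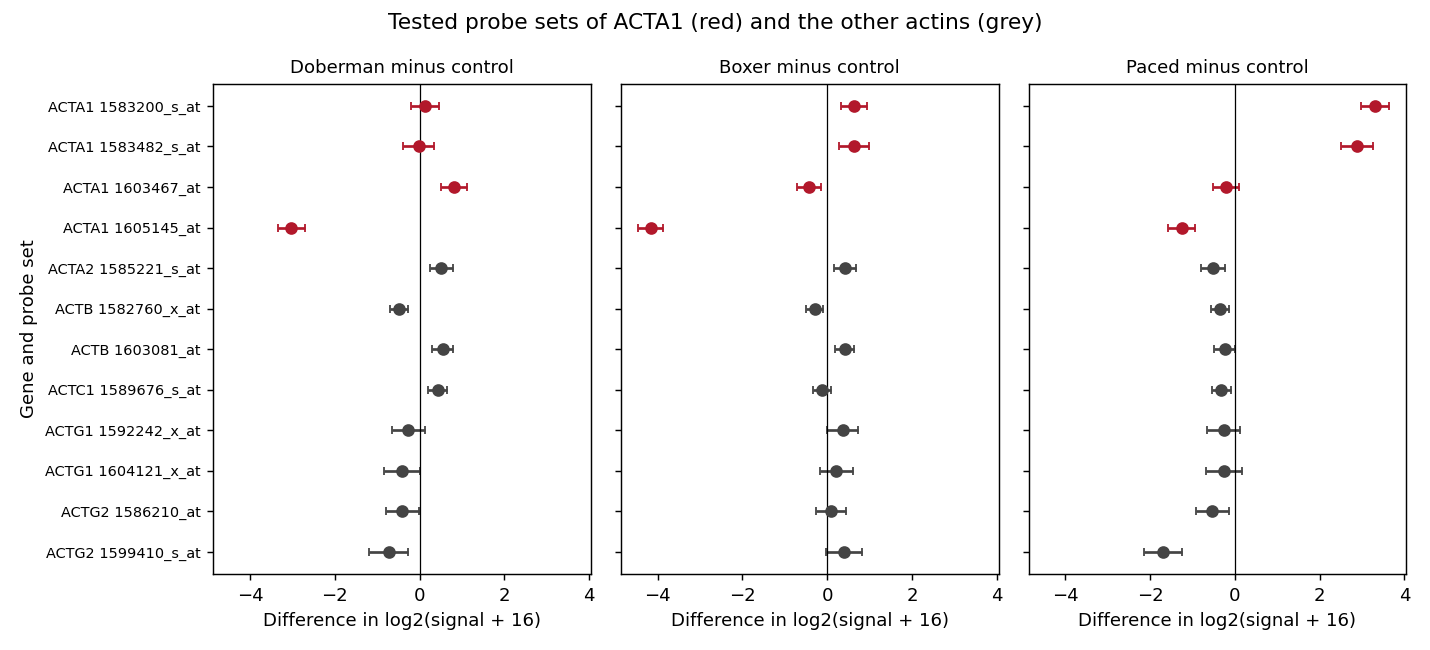
Difference in log2(signal + 16) from the controls (points, with SE as bars) for the 4 ACTA1 probe sets in red and the 8 tested probe sets of the other actins in grey, in Dobermans, Boxers and paced samples on 1 common scale. The tested probe sets of the other actins lie between -1.70 and 0.55, and ACTA1 reaches 3.31 and -4.16. Actin probe sets below the filter are not drawn.

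Partners of actin in the thin filament and Z-disc were compared between paced and control samples. Of 21 tested genes, 1 rose and 0 fell, and the median log2 change was -0.16, against 5.19% and 4.04% of the 5242 genes tested and a median of -0.04. The 1 rise was TMOD2, a tropomodulin that caps the slow-growing end of actin filaments, at 1.29 ± 0.32 (SE, limma adjusted p = 0.0194), from 149 ± 17.9 (SD, n = 3) to 388 ± 17.4 (SD, n = 3). Its call was lost without P1, P4, LV01 or LV04, with changes between 1.21 and 1.30. In the Boxers 0 of the 21 passed in limma, with 5 at an unadjusted p under 0.05, where 0.0191% of all genes rose and 0.0382% fell. TPM4, a tropomyosin, had the smallest p there, at 0.79 ± 0.19 (adjusted p = 0.301).

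In the Dobermans 3 of the 21 rose and 2 fell, against 11.9% and 14.1% of all genes. All 21 Doberman calls of list genes that were followed through the alternatives were lost in a fit of the Dobermans and controls alone, and 18 with the GAPDH ratio as a covariate. TPM2, the beta-tropomyosin that lies along the actin filament, rose by 0.76 ± 0.15 on the log2 scale (limma adjusted p = 0.0073), from 1773 ± 120 (SD, n = 3) to 3019 ± 174 (SD, n = 3). PDLIM5, a Z-disc adaptor, fell by 1.87 ± 0.40 (adjusted p = 0.0105). TPM2 did not pass with median centring, at 0.32 (adjusted p = 0.163). The median log2 change of the 21 was 0.26 with all 3 Dobermans and -0.14 without L and R. In that second fit, where K is the 1 Doberman, TPM2 stood at 0.68 and PDLIM5 at -0.51. Between the breeds 6 of the 21 were higher in the Dobermans and 2 lower, against 16.8% and 17.4% of all genes. Without L and R the counts were 1 and 0, against 1.09% and 1.37%.

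Genes of actin turnover and folding include thymosins, which hold actin monomers, cofilins, which sever filaments, and the CCT chaperonin, which folds new actin. Of 18 tested, 0 passed in limma in the paced samples and 0 in the Boxers, with 1 and 3 at an unadjusted p under 0.05. CCT5, a chaperonin subunit, had the smallest p in the paced samples, at -0.61 ± 0.21 (adjusted p = 0.0742). In the Dobermans 2 rose and 6 fell, where 11.9% of all genes rose and 14.1% fell. TMSB10, a thymosin, rose by 1.10 ± 0.20 with all 3 Dobermans (limma adjusted p = 0.00591) and was at 0.80 without L and R. CCT8, CAP2 and UNC45B were among the falls, at -1.72, -1.03 and -0.83. Without L and R these stood at -0.09, -0.22 and -0.79. The median change of the 18 was -0.34 with all Dobermans and -0.01 without L and R.

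Among the factors that act on the muscle actin promoters, 6 of 22 symbols listed had a tested probe set: FHL2, CSRP1, MEF2C, MYOCD, TEAD1 and YY1. With pacing 0 of the 6 passed in limma by 1 probe set per gene, where 5.19% of all genes rose and 4.04% fell. Of the 6, 0 had an unadjusted p under 0.05. FHL2, a LIM protein that binds serum response factor, had the smallest p there, at -0.31 ± 0.18 (adjusted p = 0.270). In the Boxers 0 passed, where 0.0191% of all genes rose and 0.0382% fell. There 1 had an unadjusted p under 0.05: MEF2C, a myocyte transcription factor, at -0.72 ± 0.24 (limma adjusted p = 0.492). In the Dobermans 1 rose and 1 fell, where 11.9% of all genes rose and 14.1% fell. FHL2 fell by 1.35 ± 0.18 (adjusted p = 0.00204), from 18344 ± 1997 (SD, n = 3) to 7199 ± 609 (SD, n = 3), and by 1.26 without L and R. CSRP1, a LIM protein of smooth muscle that acts on the same factor, rose by 0.98 ± 0.24 (limma adjusted p = 0.0159). This call was lost without P9 (0.74) and with median centring (0.54). The Doberman changes of the 4 tested CSRP1 probe sets spanned 1.43 on the log2 scale.

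Other genes of the fetal and stressed heart were measured beside the high _s_at signals of the paced samples. Of 10 tested, 0 passed in limma in the paced samples, with 2 at an unadjusted p under 0.05 and a median of -0.35. Among all genes 5.19% rose and 4.04% fell. ANKRD1, a stress-induced ankyrin repeat protein, stood at -0.78 ± 0.32 (adjusted p = 0.122), ENO1, an enolase of glycolysis, at 0.45 ± 0.18 (adjusted p = 0.126) and UCHL1, a deubiquitinase, at -0.76 ± 0.39 (adjusted p = 0.209). NPPA and NPPB, the natriuretic peptides that define this programme, were not analysed here. In the Dobermans 2 of the 10 rose and 0 fell, where 11.9% of all genes rose and 14.1% fell. UCHL1 rose by 2.16 ± 0.39 (limma adjusted p = 0.00567), from 1429 to 6054 in mean signal, and by 2.52 without L and R. HSPB7 rose by 0.82, and by 0.27 without L and R. In the Boxers 0 of the 10 passed, where 0.0191% of all genes rose and 0.0382% fell, with 2 at an unadjusted p under 0.05. UCHL1 stood there at 1.70 ± 0.36 (limma adjusted p = 0.228).

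Since ACTA1 is a gene of skeletal muscle, other genes of that tissue were measured beside it. Of 18 skeletal muscle genes on the array, 8 passed the filter, and their mean log2 signal was 8.64 to 8.95 in the paced samples, 8.48 to 8.61 in the controls, 8.44 to 8.75 in the Dobermans and 8.16 to 8.63 in the Boxers. Of the 8, 0 passed in limma in the paced samples, with 4 at an unadjusted p under 0.05. Among all genes 5.19% rose and 4.04% fell. The median log2 change of the 8 was 0.32, against -0.04 for all genes. Among the 8, MYL1 read 336 to 458 in the paced samples and 124 to 154 in the controls. TMOD4 read 317 to 362 against 144 to 176.5, and RYR1 306 to 434 against 153 to 248. MYBPC2 was lower, at 90.5 to 153.5 against 181 to 303, and the ranges of the other tested genes overlapped. For MYL1 the mean was 384 in the paced samples, 453 in the Dobermans and 544 in the Boxers. In the same order the means were 334, 218 and 147 for TMOD4, and 350, 385 and 91.3 for RYR1. Of the genes below the filter, the fast myosin heavy chain MYH4 read 5.10 to 6.80 in the paced samples and 2.60 to 6.90 in the controls. MYH1, another fast chain, read 22.7 to 52.3 against 65.7 to 140. TNNT3, TNNI2 and TNNC2, the fast skeletal troponins, had means of 17.3, 66.3 and 47.9 in the controls and of 119, 212 and 198 in the paced samples, and none passed the filter. Every paced array lay above every control for 7 of the 18, and for 23.6% of all 6540 genes on the array. Every paced array lay below every control for 2 of the 18, MYH1 and MYBPC2. The share of all genes in that direction was not computed, so nothing is read from this count. The part of skeletal muscle genes in the ACTA1 signal was not tested.

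Markers of other cells were counted in the paced samples, where 5.19% of all genes rose and 4.04% fell. Among 8 markers of smooth muscle cells and pericytes there were 1 rise and 1 fall. MCAM, an adhesion molecule of vessel walls, fell by 1.92 ± 0.28 on the log2 scale (limma adjusted p = 0.00182). SMTN, smoothelin, rose by 0.90 ± 0.28 (limma adjusted p = 0.0494). The SMTN call was lost with median centring, with a pseudocount of 1 and in 9 of 13 fits that left out 1 sample. TEK, the angiopoietin receptor, was the 1 of 6 endothelial genes that fell (-1.12 ± 0.22, adjusted p = 0.00644). MFAP4, a microfibril protein, was the 1 of 8 fibroblast genes that rose (1.20 ± 0.34, adjusted p = 0.0338), a call lost with quantile normalization, with median centring and in 4 of the 13 fits. The 8 macrophage genes and the 13 cardiomyocyte genes had 0 calls, with 0 and 4 at an unadjusted p under 0.05.

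In the Dobermans MFAP4 rose by 1.90 ± 0.34 (limma adjusted p = 0.00559) with all 3 arrays, and had an adjusted p of 0.025 with K alone. Of the 8 fibroblast genes 3 rose and 0 fell, where 11.9% and 14.1% of all genes did. Without L and R the counts were also 3 and 0, where 1.20% and 2.02% did, although S100A4 and DCN, called with all 3 Dobermans, then did not pass. Among 13 cardiomyocyte genes 1 fell: RYR2, which releases calcium from the sarcoplasmic reticulum (-1.10 ± 0.21, limma adjusted p = 0.00746). It stood at -0.77 without L and R, and with all 3 Dobermans the changes of its 4 tested probe sets spanned 2.15. PYGM, the muscle glycogen phosphorylase, which heart muscle also expresses, was the 1 of 8 skeletal muscle genes that fell (-3.42 ± 0.65, adjusted p = 0.0073), with a change of -1.12 without L and R. Of the 8 genes listed for smooth muscle cells and pericytes, DES (1.26) and MCAM (1.19) rose and 0 fell. Without L and R, DES stood at 0.41 and MCAM at 0.80. Macrophage genes had 1 rise and 1 fall of 8, and endothelial genes 0 of 6. In the Boxers 0 genes of these 6 marker lists passed in limma, and 3 fibroblast, 2 skeletal muscle, 1 endothelial and 1 macrophage gene had an unadjusted p under 0.05.

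Genes with a pattern like that of each ACTA1 probe set were sought among the 7557 other tested probe sets with 1 symbol, by Pearson's r of the log2 values over the 13 arrays. The arrays share groups, so r mainly reflects group levels, and no p-value is given. For 1583200_s_at these were TPT1, a translationally controlled protein (r = 0.97), CBX5, a heterochromatin protein (0.96), SEPTIN4, a septin (0.96), RCC1, the exchange factor of Ran (0.94), and RBX1, a ring protein of cullin ligases (0.94). For 1583482_s_at they were CBX5, SEPTIN4 and RBX1 (0.95 each) with THRA, a thyroid hormone receptor, and TPT1 (0.94 each). With the Dobermans left out, TPT1 had the highest r for both, 0.99 over 10 arrays. Each likeness belongs to 1 probe set: the paced changes of the 8 TPT1 probe sets spanned 3.61 on the log2 scale and those of the 4 SEPTIN4 probe sets 3.95.

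The lists of the other ACTA1 probe sets held different genes. For 1605145_at the genes were CIAO2B, which serves iron-sulfur protein assembly (r = 0.83), SNAPIN, a protein of vesicle traffic (0.83), SF3B5, a splicing factor subunit (0.83), FLT1, a receptor for vascular growth factors (0.82), and KIDINS220, a scaffold of neurotrophin signalling (0.81). No r passed 0.9 for it, whereas 21 probe sets did for 1583200_s_at. For 1603467_at the genes were LDHD, a lactate dehydrogenase for the D form (0.93), SAMD11 (0.92), SGCA, a sarcoglycan of the muscle membrane (0.92), RAP1GDS1, an exchange factor of small GTPases (0.92), and TLE7 (0.91). With the Dobermans left out, r for these 5 fell to between 0.57 and 0.70.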

How the data were processed

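Per the labels, total RNA was biotin-labelled by the standard Affymetrix 1-cycle protocol. Per the submitters' processing notes the authors used MAS5, and the deposited file holds its signal as a linear intensity, with a 2% trimmed mean of about 500 on each array. The version of MAS5 and a genome build were not given in the sources used here. From these, log2(signal + 16) was computed. Leaving 77 control probe sets out, of 23836 probe sets those under the 40th percentile of mean log2 signal (6.95, a signal of 108) were dropped and 14302 tested. Symbols came from the array annotation: 10549 probe sets had 1, 138 several and 13149 none, and updating through gene identifiers changed 0. Each listed gene was represented by its tested probe set of highest mean signal.

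The 4 groups entered 1 fit over the 13 arrays with limma 3.58.1 under R 4.3.3, using an intensity trend, 9 residual degrees of freedom and Benjamini-Hochberg adjustment at 0.05 over all tested probe sets. Precision is limited by how few arrays each group has. Beyond the sample names, the labels do not say that the samples came from separate animals, so the p-values measure the spread between these samples. ACTA1 and the gene lists were chosen with earlier results of these data known. Every ACTA1 probe set, every actin and up to 4 members of each other list were named, the latter by the smallest p among those that passed, or up to 3 where none passed; for likeness, the 5 probe sets of highest r were named. The pipeline was tested on simulated data. Plots came from matplotlib 3.10.9 under Python 3.11.15.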

Additional observations from a re-analysis of the deposited data

Results flagged for a closer look

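On the ACTA1 probe set 1603467_at, every Doberman lay above and every Boxer below the mean of the controls, and the breeds differed by 1.24 on the log2 scale. Since this probe set was chosen for its values, the difference is a description with no p-value. It was 0.52 with Dobermans L and R left out, where K alone stands for the breed, and 0.68 with the GAPDH ratio as a covariate.

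Of the 21 named genes called in the Dobermans, 13 differed between the breeds themselves in the test of Dobermans against Boxers (limma adjusted p under 0.05). Among all genes 16.8% were higher and 17.4% lower. Both tests use the same 3 Doberman arrays, so calls in 1 favour calls in the other. The median difference between the breeds was 0.29 for the thin filament genes, and 0.004 without L and R. For the regulators of muscle actin genes it was 0.21, and -0.19 without L and R. The log2 difference, Dobermans minus Boxers, was 0.91 for TPM2, 1.03 for TCAP, 0.87 for CSRP1, 0.65 for HSPB7, 1.12 for DES and 1.37 for MCAM. It was -1.77 for PDLIM5, -1.06 for CAP2, -1.71 for CCT8, -1.17 for FHL2, -2.68 for PYGM, -0.88 for RYR2 and -2.21 for LYZ. Against the controls TCAP stood at 1.07 and LYZ at -1.20, and without L and R at 0.16 and -0.42. Dobermans L and R carried GAPDH ratios of 2.10 and 3.62, and the part of RNA quality was not tested.

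In 3 probe sets 1 Boxer stood apart from the other Boxers, with a gap that took a large share of the group's range: 0.836 for ACTB (1582760_x_at), 0.862 for DCN (1582726_s_at) and 0.847 for SMTN (1584499_s_at). The limit is Dixon's 95% critical value for 4 samples, which chance passes in about 1 of 20 groups. The number of groups screened is not given here, so nothing is read from the count of 3.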

How the results depend on the processing

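Over 22 alternatives, the paced values of both _s_at probe sets and the Boxer and Doberman values of 1605145_at kept their direction. These values chose the gene, so this is a description. Values below are log2 changes, and the cause of a change was not tested unless the setting itself drops samples or probe sets. No paired analysis was possible because the sample names are shared by no groups. The number of arrays, and signal near background for 1605145_at in the Boxers, limit the precision.

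With median centring, which moved the median of all probe sets to -0.25 (Dobermans), 0.04 (Boxers) and -0.45 (paced) from 0.19, -0.03 and 0.06, 1603467_at stood at 0.37 and 1605145_at at -3.47 in the Dobermans. In the paced samples 1583200_s_at was 2.80, 1603467_at -0.72 and 1605145_at -1.76, with 3924 probe sets called against 1747. Between breeds 1583200_s_at was -1.01 and 1583482_s_at -1.17, both then passing, 1603467_at 0.73 and 1605145_at 0.63, where quantile normalization gave 0.71. The share of calls that were higher, as deposited, quantile-normalized and median-centred, was 56.2%, 39.3% and 14.0% in the Dobermans, 69.4%, 42.2% and 13.5% in the paced samples, 33.3%, 16.7% and 28.6% in the Boxers, and 61.5%, 42.1% and 15.8% between breeds.

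With the GAPDH ratio as covariate, the Doberman values were -0.62, -0.93 and 0.28 for 1583200_s_at, 1583482_s_at and 1603467_at, and -1.28, -1.60 and 0.68 against the Boxers, with 95 and 56 probe sets called against 3644 and 5066, and 2935 in the paced samples. Without Dobermans L and R, planned for the ACTA1 values and added for the counts and list genes after seeing the data, these were -0.74, -1.20 and 0.095, and -1.38, -1.83 and 0.52, with 376 and 304 called, 118 in the Boxers and 4407 in the paced samples. Fits of only the compared groups called 20 (Dobermans), 25 (Boxers), 3576 (paced) and 2114 (between breeds), array weights 254 in the Boxers and 4222 in the paced samples, and no filter 4389 in the paced samples.

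Leaving out 1 sample gave, for 1583200_s_at, 1583482_s_at, 1603467_at and 1605145_at in turn, -0.11 to 0.56, -0.39 to 0.56, 0.55 to 1.17 and -3.37 to -2.77 in the Dobermans. It gave 0.46 to 0.93, 0.52 to 0.85, -0.67 to -0.25 and -4.27 to -3.96 in the Boxers, and 3.14 to 3.61, 2.77 to 3.10, -0.46 to -0.04 and -1.36 to -1.07 in the paced samples. Between breeds it gave -0.74 to -0.07, -1.02 to -0.069, 0.98 to 1.60 and 0.80 to 1.40. Counts ran from 1192 to 7349, 5 to 13, 811 to 3315 and 2213 to 8110. Of 27 named calls, 2 (MCAM and TEK in the paced samples) passed in all 22 settings, and of 594 values 457 kept the call, 137 lost it and 0 reversed. The gene most like each probe set by Spearman's rho was MTF2 (0.92), CBX5 (0.94), DYRK2 (0.91) and SF3B5 (0.88). Without the Dobermans it was TPT1 (r = 0.99) for both _s_at probe sets, ABCD3 (0.93) for 1603467_at and MRPL39 (0.97) for 1605145_at.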
